A study of Mus musculus with 24 samples.

Results

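The 47 genes described here are known targets of the transcription factor NRF2 and genes of glutathione metabolism, measured in mouse liver that did or did not lack Foxa1 and Foxa2. They were taken by symbol from a fixed list, chosen with earlier results of these data known, and each was represented by its brightest array feature. All 47 passed the filter on dim features, among 19287 genes tested. By role they were 4 genes of glutathione synthesis, 5 of glutathione reduction and the peroxidases, 16 cytosolic and mitochondrial glutathione transferases, 3 microsomal transferases, 5 enzymes of NADPH supply, 4 of the thioredoxin system, 4 quinone, haem and xenobiotic enzymes, 2 ferritin chains, and NRF2 itself with 3 of its partners.

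RNA was measured on 24 single-colour Agilent arrays, 4 for each of 6 groups. The groups were untreated wild-type females, untreated dKO females, treated wild-type females, treated dKO females, treated wild-type males and treated dKO males, where dKO stands for loss of both Foxa genes. Treated mice received DEN, a liver carcinogen, at 20 mg/kg when 14 to 15 days old, and then the promoter TCPOBOP at 3 mg/kg in 8 injections 2 weeks apart. No untreated males were measured. All 6 groups carry the tissue label liver tumor, the untreated ones included, and the extraction protocol speaks of liver samples and of sorted cells. Which exons were deleted, any Cre driver and the age at sampling are not stated in the sources used here. Nor do they say that the arrays of a group came from separate animals, and a p-value here reflects only how far these arrays scatter, which may be technical. Foxa1 was above background on 3 of 3 arrays in each wild-type group and on 0 of 3 in each dKO group. Foxa2 had a mean level of 3.68 to 4.44 in the wild-type groups and -6.00 to -4.27 in the dKO groups, where it was above background on 2 of 3 arrays in untreated females, 2 of 3 in treated females and 1 of 3 in treated males. A level here is the log2 of a gene's signal over the 75th percentile of its array, so 0 is that percentile and 1 unit is a doubling.

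In every group array 4 lay between the other 3 arrays for most genes, as a mix of them would. Over 8040 genes with a mean level above 0, array 4 fell inside the range of arrays 1 to 3 for 71.5% to 86.9% of genes, while arrays 1 to 3 fell inside the range of their fellows for 21.8% to 64.5%. Its root mean square distance from the linear mean of the other 3 was 0.0972 to 0.151 log2, against 0.222 to 0.798 for arrays 1 to 3. Among the 47 genes it fell inside in 255 of 282 cases. The labels describe no pool, and array 4 was not counted as a separate sample. Values and tests below therefore use arrays 1 to 3 of each group (18 arrays, n = 3), with limma's moderated test, Benjamini-Hochberg adjustment over all 19287 genes and a call at an adjusted p under 0.05. The fit gives each gene 1 spread estimate, shared by all 6 groups. An SE or p-value therefore also reflects scatter in groups outside the comparison. Counts with all 24 arrays are given beside them.

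NRF2 is a transcription factor that is held by KEAP1 and degraded, and that enters the nucleus when oxidants or electrophiles modify KEAP1. There it pairs with small MAF proteins and binds the antioxidant response element, a short DNA motif. Its targets make and use glutathione, supply NADPH, reduce thioredoxin and conjugate xenobiotics, and liver is a major site of these reactions.

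The core letters of that element, TGACNNNGC on either strand, were found within 250 bases before to 50 bases after the annotated start of 14 of the 42 members that have a RefSeq promoter window (33.3%). The share over all 27025 genes with a window was 14.0%. The sequences that follow are shown because they belong to members called in a comparison further on, with Prdx1 added since it has the same core as Me1. Each run is RefSeq sequence of build GRCm38.p6, 5′ to 3′ on the strand where the core reads TGACNNNGC, with the core in capitals. In Me1 and Prdx1 the core overlaps TGANTCA, the letters of the AP-1 motif, which were found in 6 of the same 42 members (14.3%) and in 8.97% of all genes with a window. A match is a description of letters and not evidence of binding.
Me1, malic enzyme, chr9:86695902-86695930, minus strand: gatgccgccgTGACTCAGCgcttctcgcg
Prdx1, a peroxiredoxin, chr4:116685456-116685484, minus strand: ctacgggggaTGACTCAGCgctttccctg
Ugdh, UDP-glucose dehydrogenase, chr5:65435956-65435984, minus strand: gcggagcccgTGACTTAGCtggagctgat
Ugdh, UDP-glucose dehydrogenase, chr5:65435918-65435946, plus strand: ccgaactgtaTGACCACGCcccttgagga
Srxn1, sulfiredoxin, chr2:152105542-152105570, minus strand: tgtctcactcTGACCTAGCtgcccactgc
Gstm5, a mu-class glutathione transferase, chr3:107895802-107895830, plus strand: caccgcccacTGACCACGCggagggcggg
Mafg, a small MAF protein, chr11:120633751-120633779, plus strand: ctcgccgggtTGACCGTGCtcctgcagag
Nfe2l2, the gene of NRF2 itself, chr2:75704885-75704913, minus strand: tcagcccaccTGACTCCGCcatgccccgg

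Among the 47 genes Mgst2 was higher in dKO in treated females, Gpx3 was higher in dKO in both treated sexes, and 8 of 16 cytosolic and mitochondrial glutathione transferases were lower in dKO in treated males. In treated males 1 member was called higher in dKO and 15 were called lower, when 6.20% of all genes were called higher and 4.39% lower. The median difference of the members there was -0.59 log2, against 0.05 over all genes. In treated females 3 members were called higher in dKO and 1 lower, with 4.53% and 3.43% of all genes called, and medians of -0.13 for members and -0.06 for all genes. Treatment of dKO females gave 8 members called higher and 2 lower, with 5.97% and 7.26% of all genes called, and medians of 0.51 and -0.06. Between treated dKO males and females 0 members were called higher in males and 2 lower, with 1.71% and 0.788% of all genes called, and medians of -0.37 and 0.07.

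In the other 5 comparisons limma called 0 members. In untreated females 0.913% of all genes were called higher and 0.684% lower in dKO. At an unadjusted p under 0.05, 3 members were higher and 9 lower, against 6.59% and 6.43% of all genes. For treatment of wild-type females 1.09% of all genes were called higher and 1.01% lower, and at that unadjusted level 7 members were higher and 1 lower, against 9.12% and 10.3% of all genes. For treated wild-type males against females 0.218% and 0.176% were called, and unadjusted 10 members were higher and 0 lower, against 5.32% and 5.49% of all genes. The test of whether the genotype difference differed between the treated sexes called 0% of all genes in either direction. Unadjusted, 0 members were higher and 20 lower in males, against 8.77% and 6.15% of all genes. The test of whether the genotype difference changed with treatment in females called 0.0104% of all genes higher and 0.0259% lower. Unadjusted, 5 members were higher and 2 lower, against 5.16% and 5.26% of all genes. Median member differences in these 5 comparisons were -0.09, 0.14, 0.28, -0.77 and 0.27, against -0.05, -0.07, -0.03, 0.11 and -0.01 over all genes. The comparisons share groups, so their values are not independent of each other.

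With all 24 arrays the counts of called members were 19 in treated females, 23 in treated males, 31 for treatment of dKO females and 23 between the treated dKO sexes, when 29.8%, 25.2%, 37.8% and 20.5% of all genes were called in either direction. They were 8, 7, 5, 19 and 4 in the 5 comparisons just listed, when 9.75%, 17.1%, 6.07%, 12.6% and 5.13% of all genes were called. Every call made with 18 arrays was also made with 24, which is no separate check. The 24 arrays include those 18, and array 4 lay between the others for most genes. Slide and position were read from the barcode and last digit of each array's name, since the sample labels do not give them. Array position could hardly be told apart from group, since all 3 treated dKO female arrays lay at position 4 of their slides and all 3 treated wild-type male arrays at position 1. With position as a covariate limma called 0 members in each of the 9 comparisons. With slide as a fixed block it called 3 members in treated females, 7 in treated males, 1 for treatment of dKO females and 1 between the treated dKO sexes. The shares of all genes called in the position and slide fits are not given here.

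**Figure D1:**
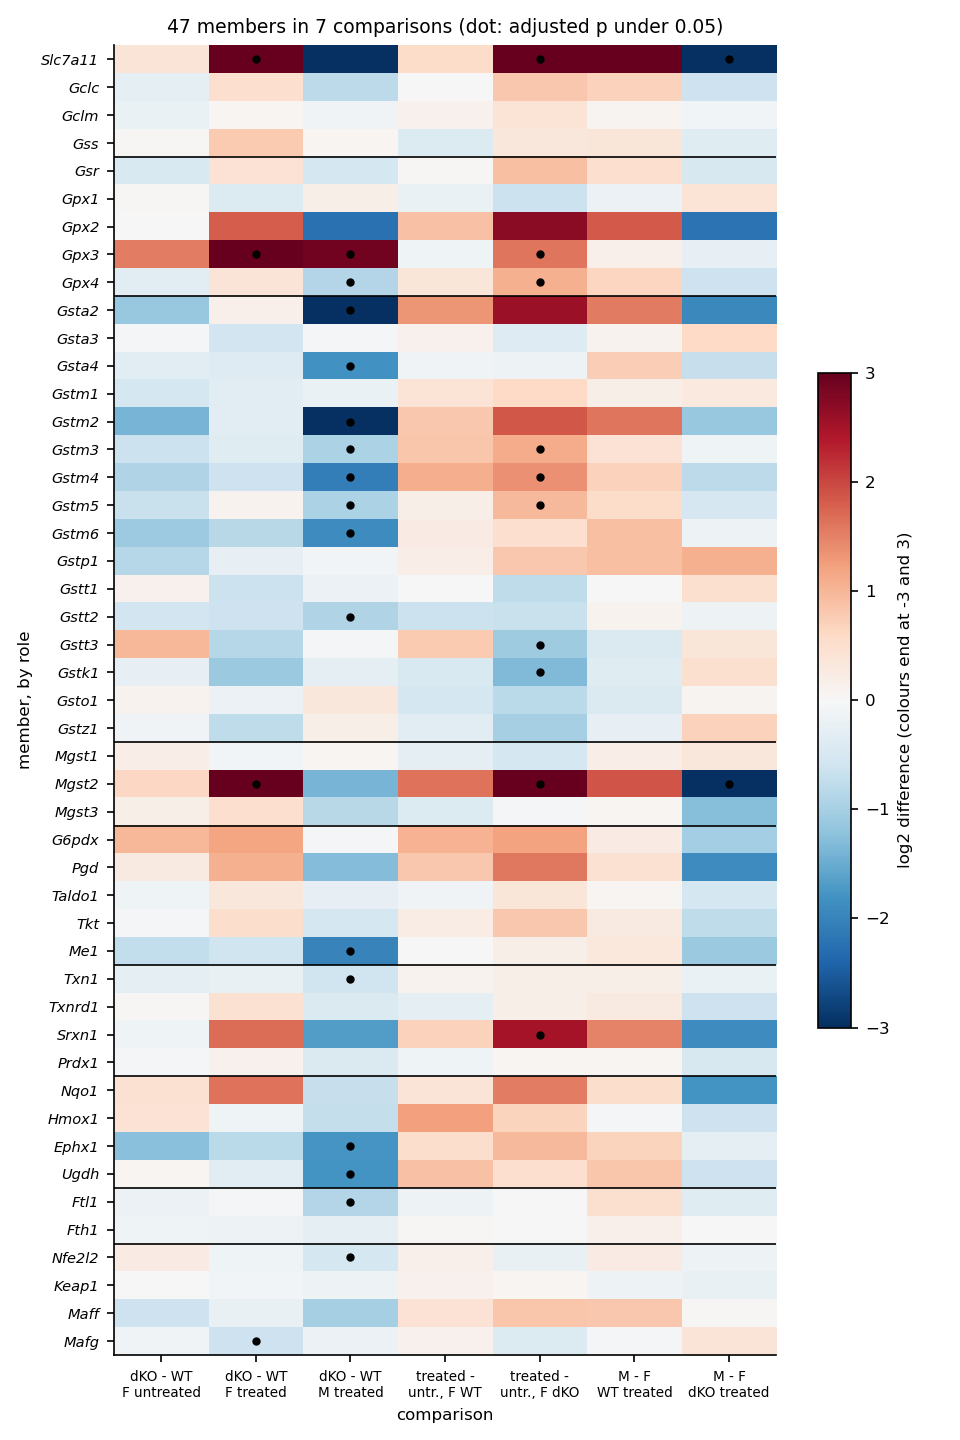
Log2 difference of each of the 47 members (rows, by role) in 7 comparisons (columns), means of 3 arrays a group. Red is higher and blue lower in the first group named, colours end at -3 and 3, and a dot marks an adjusted p under 0.05. The column for treated males holds 16 dots and the first column none.

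Treated dKO females were also the most uneven group. Replicate 2 stood apart, with a mean hepatocyte marker level of 4.28 over 10 measured markers, against 6.51 and 6.87 on replicates 1 and 3 and 6.498 to 7.14 on the arrays of the other groups. All 10 hepatocyte markers were above background on every array. The summed bile duct marker signal, in units of the 75th percentile over 12 markers, was 77.2 to 252 in treated dKO females and 64.4 to 82.3 in treated dKO males, against 11.1 to 23.6 in treated wild-type females and 11.7 to 22.2 in treated wild-type males. It was 17.4 to 26.7 in untreated dKO and 8.98 to 9.70 in untreated wild-type females. A sum is weighted to the brightest markers. The mean log2 level of the same 12 was -1.05 to -0.13 in treated dKO females and -0.77 to -0.07 in treated dKO males. In treated wild type it was -2.90 to -1.80 in females and -3.09 to -2.21 in males. Replicate 2 of the treated dKO females had the highest sum and the lowest mean of arrays 1 to 3 in its group. Stellate cell and fibroblast markers summed to 125 to 201 in treated dKO females and 64.02 to 86.85 in treated wild-type females, and to 127 to 144 in treated dKO and 36.95 to 83.7 in treated wild-type males. Macrophage markers summed to 150 to 316 and 121.5 to 256 in treated dKO and wild-type females, and to 139 to 161 and 57.9 to 251 in the males. In such bulk RNA fewer cells of a type and less RNA per cell cannot be told apart. The part of these markers, and of array quality, in the results below was not tested.

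**Figure D2:**
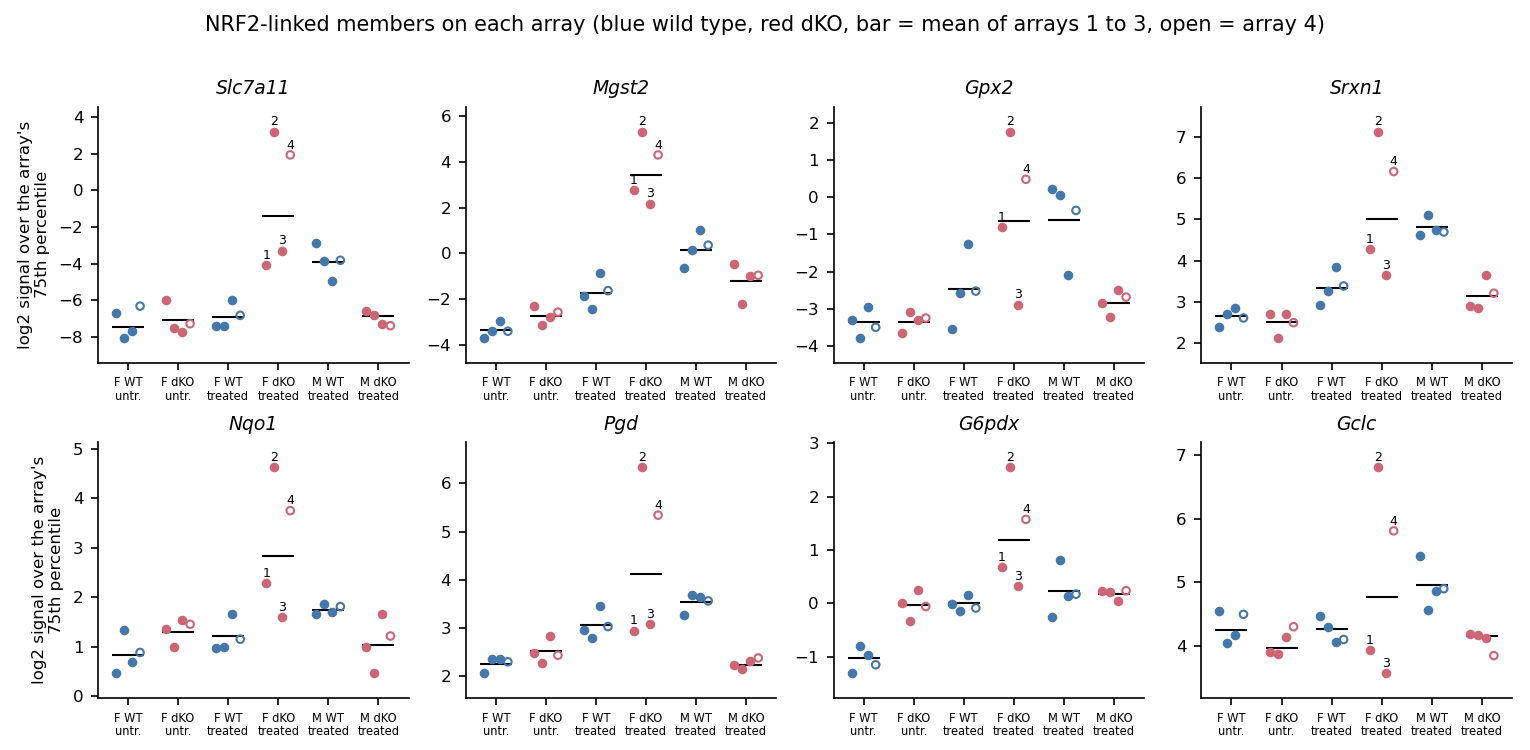
Level (log2 of signal over the array's 75th percentile) of 8 members on each array in the 6 groups, with bars at the mean of arrays 1 to 3. Open points are array 4, and numbers mark the treated dKO female arrays: replicate 2 is the highest of arrays 1 to 3 for all 8 genes.

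Glutathione synthesis begins with cystine uptake by Slc7a11, the light chain of the cystine and glutamate exchanger. Slc7a11 (feature at chr3:50169700-50169759, mm9) stood at -4.11, 3.20 and -3.30 in treated dKO females and at -7.39, -7.41 and -5.99 in treated wild-type females. In treated males it stood at -2.89, -3.85 and -4.94 in wild type and at -6.57, -6.79 and -7.29 in dKO. It was above background on 3 of 3 arrays in treated dKO females and in treated wild-type males. In each of the other 4 groups it was above background on 0 of 3. Among the arrays tested, only the first 2 groups carried it through the filter on dim features. By this feature the dKO and wild-type arrays did not overlap in either treated sex, and they lay in opposite order in the 2 sexes. It gave genotype differences of 5.52 log2 in treated females and -2.99 in treated males. The other 3 Slc7a11 features gave 1.97, 1.30 and 4.53 in females and -0.64, -0.26 and -1.62 in males. For treated wild-type males against females they gave 0.70, -0.63 and 1.71, and this feature 3.04. They were above background on 2, 3 and 4 arrays, against 8 for this feature, with array 4 of each group counted. The limits that follow are for this feature. Against the floor set by the lowest signal well above background on each array, Slc7a11 was at least 13.9-fold higher in treated dKO than in treated wild-type females (adjusted p = 0.0247 in limma's fit), at least 12.4-fold higher in treated than in untreated dKO females (adjusted p = 0.0203), and at least 13.8-fold lower in treated dKO males than females (adjusted p = 0.0493). These p-values belong to fitted differences that rest on signals below background in the other group, and they do not test the limits. In treated males Slc7a11 was at least 2.46-fold lower in dKO, with an adjusted p of 0.191 of the same kind. The spread behind that p is shared by all 6 groups. The standard deviation was 4.00 in treated dKO females, against 1.03 in treated wild-type males and 0.37 in treated dKO males.

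Much of the size of the Slc7a11 difference came from replicate 2 of the treated dKO females. Without it the limits against the same floors were at least 2.82-fold higher than in treated wild-type females, at least 2.52-fold higher than in untreated dKO females and at least 2.81-fold lower in treated dKO males. The fitted differences, which rest on signals below background in the other group, were then 3.22, 3.38 and -3.18 log2 in place of 5.52, 5.68 and -5.48, and were still called (adjusted p = 0.0156, 0.0185 and 0.0409 in limma's fit). The call between the treated female genotypes was lost without replicate 1 or 2 of the wild-type females (adjusted p = 0.095 and 0.085), at 5.30 and 5.28. The call for treatment was lost without replicate 2 or 3 of the untreated dKO females, at 5.47 and 5.35, and the call between the dKO sexes without any of the 3 treated dKO male arrays, at -5.63, -5.52 and -5.28. With normexp background correction the differences were 1.87, 2.74 and -2.50, and none of them was called.

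The enzymes that follow were called in none of the 7 comparisons between groups. Gclc, the catalytic subunit of glutamate-cysteine ligase and the rate-limiting enzyme of synthesis, stood at 3.93, 6.81 and 3.57 in treated dKO females, so that replicates 1 and 3 lay below the treated wild-type range of 4.06 to 4.47. Gclm, the modifier subunit, had group means of 1.52 to 1.95. Gss, glutathione synthetase, was 0.78 ± 0.23 log2 (SE) higher in treated dKO than in treated wild-type females, with an adjusted p of 0.0503 in limma's fit and no overlap between arrays.

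Gpx3, a secreted glutathione peroxidase, was called higher in dKO in both treated sexes. It stood at -0.33, 0.76 and -0.62 in treated dKO females and at -3.87, -3.05 and -3.12 in treated wild-type females. In treated males it stood at 0.32, -1.03 and -0.23 in dKO and at -3.29, -3.03 and -3.29 in wild type. Every dKO array lay above every wild-type array in both sexes. Gpx3 was 9.73-fold higher in dKO in females (3.28 ± 0.38 log2, SE, adjusted p = 0.000412 by limma) and 7.40-fold higher in males (2.89 ± 0.38, adjusted p = 0.00045). Both calls held without any 1 array, over 2.87 to 3.56 and 2.57 to 3.25 log2. With normexp they were smaller, at 1.90 and 1.91, and still called. On slides that held both genotypes the difference was 3.88 in females (1 slide) and 1.997 to 3.60 in males (2 slides). The female slide held the uneven dKO replicate 2, at position 4, and wild-type replicate 3, at position 2.

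In untreated females Gpx3 stood at -1.66, -2.12 and -1.25 in dKO and at -3.01, -3.16 and -3.47 in wild type. These arrays did not overlap either, and the difference of 1.54 ± 0.38 log2 (SE) missed the threshold (adjusted p = 0.0629 by limma). From untreated to treated dKO females Gpx3 rose 3.06-fold (1.61 log2, adjusted p = 0.0201), a call lost without replicate 1 or 2 of the untreated dKO females (1.62 and 1.39) or replicate 2 of the treated dKO females (1.20).

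The other peroxidases moved less evenly. Gpx4, which reduces lipid hydroperoxides, fell by 0.87 ± 0.26 log2 (SE) in dKO in treated males (adjusted p = 0.0481 by limma), from levels of 6.17 to 6.32 to levels of 5.18 to 5.69. It rose by 1.08 ± 0.26 with treatment in dKO females (adjusted p = 0.0217), from 4.71 to 5.07 up to 5.49 to 6.77, and that call was lost without replicate 1 or 2 of the untreated dKO females (1.11 and 0.97) or replicate 2 of the treated ones (0.69). Gpx2, an epithelial glutathione peroxidase, stood at -0.81, 1.75 and -2.88 in treated dKO females and at 0.22, 0.06 and -2.10 in treated wild-type males, and was called in no comparison. Gsr, glutathione reductase, and Gpx1, the abundant cytosolic peroxidase, were likewise not called, with adjusted p of 0.0536 and 0.106 for treatment of dKO females, their lowest and in opposite directions (0.91 and -0.65).

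Glutathione transferases join glutathione to electrophiles. Of the 16 cytosolic and mitochondrial ones, 0 were called higher and 8 lower in dKO in treated males: Gsta2, Gsta4, Gstm2, Gstm3, Gstm4, Gstm5, Gstm6 and Gstt2. The median difference of the 16 was -0.59 log2. Gstm2 (feature at chr3:107784622-107784681, mm9) stood at 6.42, 7.30 and 7.16 in treated wild-type males and at 4.03, 3.39 and 4.17 in treated dKO males. The arrays were far apart, and Gstm2 was 8.55-fold lower in dKO (-3.10 ± 0.59 log2, SE, adjusted p = 0.00482 by limma). On the 2 slides that held both groups the difference was -3.12 and -3.91.

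Gstm4 was 4.24-fold lower in treated dKO males (-2.09 log2, adjusted p = 0.00603 by limma), Gstm6 3.68-fold lower (-1.88, adjusted p = 0.00561) and Gsta4, an alpha-class transferase that acts on lipid aldehydes, 3.54-fold lower (-1.82, adjusted p = 0.00383). These 3 calls and that of Gstm2 held without any 1 of the 6 arrays. Gsta2, another alpha-class enzyme, was 10.1-fold lower (-3.34 log2, adjusted p = 0.0323), at 2.81, 0.85 and 3.24 in dKO against 5.80, 5.14 and 5.98 in wild type. Its call was lost without any 1 array other than dKO replicate 3, at -2.61 to -3.60. Gstm5 fell by 0.94 log2 in dKO, and its call was lost without replicate 1 or 3 of the wild-type males or replicate 1 or 2 of the dKO males, at -0.64 to -1.04. Gstm3 and Gstt2 fell by 0.94 and 0.90 log2, with adjusted p of 0.0419 and 0.041 in limma's fit. Leaving out 1 array at a time lowered the count of members called in treated males from 16 to between 7 and 13, and which of the 6 smallest calls (Gstm3, Gstt2, Ftl1, Gpx4, Txn1 and Nfe2l2) were among those lost was not examined.

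**Figure D3:**
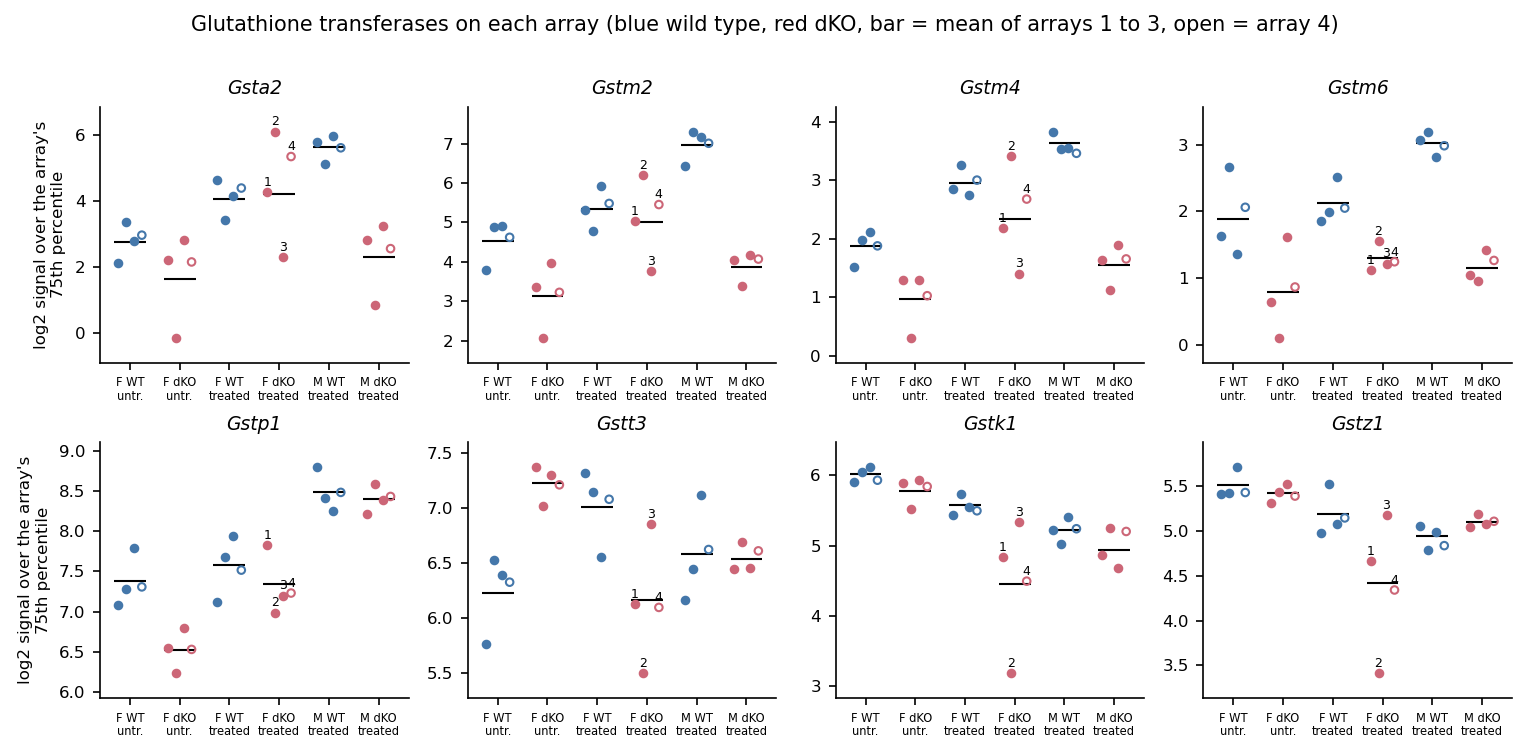
Level (log2 of signal over the array's 75th percentile) of 8 glutathione transferases on each array in the 6 groups, with bars at the mean of arrays 1 to 3 and array 4 as an open point. In treated males the dKO points of Gsta2, Gstm2, Gstm4 and Gstm6 lie below all wild-type points, while those of Gstp1, Gstt3 and Gstz1 overlap them.

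In treated females limma called 0 of the 16 transferases between genotypes, with 0 higher and 7 lower in dKO at an unadjusted p under 0.05, a level that 12.1% of all genes reached higher and 13.8% lower. Gstm2 stood at 5.04, 6.20 and 3.76 in dKO, across the wild-type range of 4.78 to 5.93. Gstk1, the mitochondrial and peroxisomal kappa transferase, differed by -1.12 ± 0.38 log2 (SE, adjusted p = 0.0873 in limma's fit), and by -0.49 without replicate 2 of the treated dKO females. Without that array Gstm4 differed by -1.16 and Gstm6 by -0.96, and neither was called (adjusted p = 0.0734 and 0.239). With treatment of dKO females the family split: Gstm3, Gstm4 and Gstm5 rose by 1.11, 1.37 and 0.96 log2 (adjusted p = 0.0224, 0.0436 and 0.0309), and Gstk1 and Gstt3, a theta-class enzyme, fell by 1.33 and 1.07 (adjusted p = 0.038 and 0.0477).

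Those 5 treatment calls were not stable. That of Gstm3 was lost without untreated dKO replicate 2 (0.77) or treated dKO replicate 1 or 2 (0.9985 and 1.01). Each of the others was lost without any 1 array other than treated dKO replicate 3. Without replicate 2 of the treated dKO females Gstm4 differed by 0.83, Gstm5 by 0.79, Gstk1 by -0.70 and Gstt3 by -0.74. That array was the lowest of its group for Gstk1, at 3.18 against 4.84 and 5.33, and its hepatocyte markers were the lowest too.

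The remaining transferases, Gsta3, Gstm1, Gstp1, Gstt1, Gsto1 and Gstz1, were called in none of the 7 comparisons between groups. Gstp1, the pi-class enzyme, stood at 8.26 to 8.80 in treated wild-type males and 8.22 to 8.59 in treated dKO males, above 7.12 to 7.95 and 6.99 to 7.83 in the females of each genotype. The sex difference was 0.91 ± 0.27 log2 (SE) in wild type (adjusted p = 0.184 by limma) and 1.06 ± 0.27 in dKO (adjusted p = 0.0548). Gstm1 was measured by 2 features that disagreed in size: in treated males the brighter gave -0.20 log2 for dKO against wild type and the dimmer -1.60. The mu-class genes are close copies of each other, and how far each feature is specific to its gene was not tested.

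Of the 3 microsomal transferases, Mgst2, an endoplasmic reticulum enzyme that also makes leukotriene C, differed most. Mgst2 (feature at chr3:51486449-51486508, mm9) stood at 2.76, 5.33 and 2.18 in treated dKO females and at -1.89, -2.43 and -0.86 in treated wild-type females. It stood at -2.31, -3.12 and -2.78 in untreated dKO females and at -0.48, -2.22 and -0.98 in treated dKO males. The treated dKO females therefore lay above every other array, which reached 1.02 at most, in a treated wild-type male. Mgst2 was 35.5-fold higher in dKO in treated females (5.15 ± 0.71 log2, SE, adjusted p = 0.00111 by limma), 71.4-fold higher in treated than untreated dKO females (6.16 ± 0.71, adjusted p = 0.000638) and 25.1-fold lower in dKO males than females (-4.65 ± 0.71, adjusted p = 0.00706).

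These 3 Mgst2 calls held without any 1 array. Without replicate 2 of the treated dKO females the differences were 4.20, 5.21 and -3.70 log2, all called. With slide as a fixed block they were 4.99, 5.65 and -4.77, all called. With array position as a covariate they were 3.80, 5.25 and -3.90, none called. In treated wild-type males Mgst2 stood at -0.66, 0.12 and 1.02, overlapping the dKO males, and the difference of -1.39 ± 0.71 (SE) was not called (adjusted p = 0.253). The genotype difference in males minus that in females was -6.54 ± 1.01 log2 (SE), with an adjusted p of 0.0813 in limma's fit. Without replicate 2 of the treated dKO females it was -5.59 with an adjusted p of 0.0294. Mgst1 and Mgst3, the other microsomal enzymes, were called in no comparison, and the largest difference of Mgst3 was -1.28 log2 between treated dKO males and females (adjusted p = 0.0721).

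**Figure D4:**
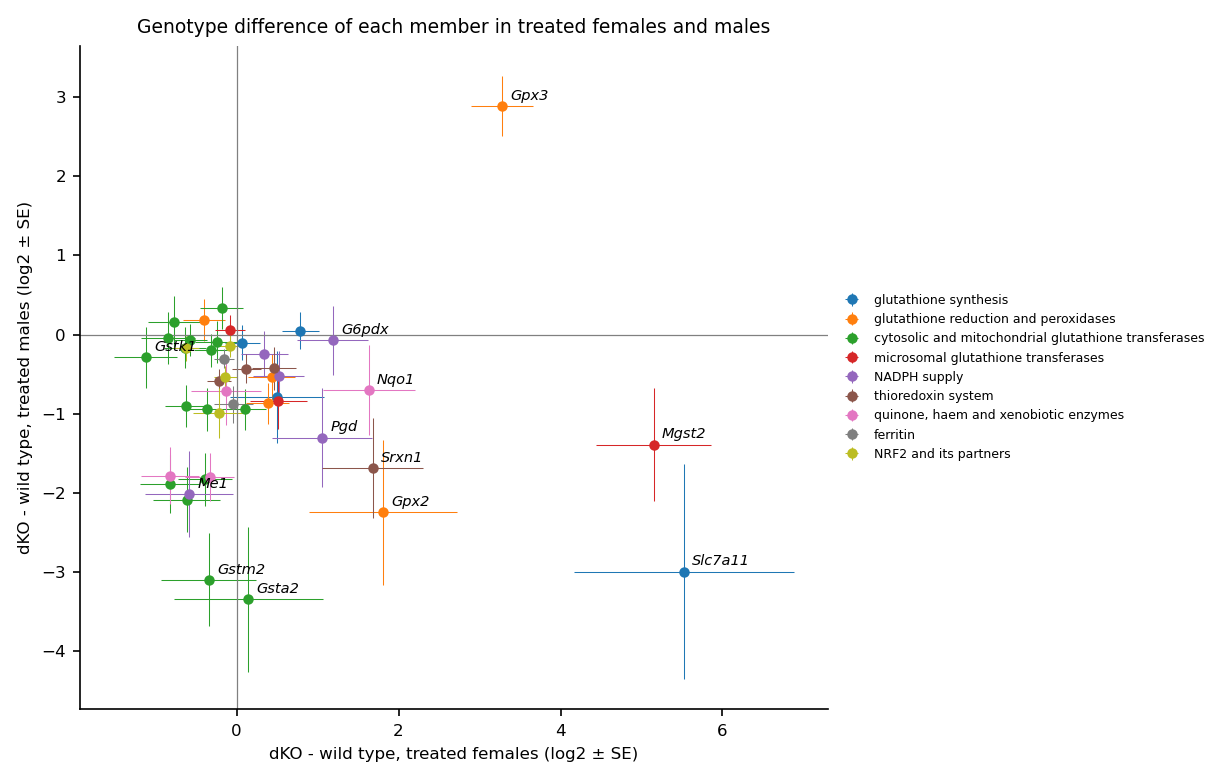
Genotype difference (dKO minus wild type, log2, with SE bars from the fit) of each of the 47 members in treated females (x axis) and treated males (y axis), coloured by role. Slc7a11 was not above background in 1 group of each contrast, so its points are fitted values. Gpx3 lies high on both axes, Mgst2 and Slc7a11 lie to the right and below 0 on the y axis, and Gsta2 and Gstm2 lie near 0 on the x axis and below -3 on the y axis.

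NADPH for the reduction of glutathione and thioredoxin comes in part from the pentose phosphate pathway (G6pdx, Pgd, Taldo1, Tkt) and from malic enzyme (Me1). Me1 stood at 3.17, 2.88 and 3.70 in treated wild-type males and at 0.81, 1.17 and 1.73 in treated dKO males. It was 4.03-fold lower in dKO (-2.01 ± 0.54 log2, SE, adjusted p = 0.0294 by limma), a call lost without replicate 1 or 3 of the wild-type males (-2.05 and -1.78) or replicate 1 or 2 of the dKO males (-1.80 and -1.98). The 4 pentose phosphate genes were called in none of the 7 comparisons. For Tkt the feature used gave -0.52 log2 between genotypes in treated males and 0.80 for treatment of dKO females. Another Tkt feature, above background on 23 of 24 arrays, gave -1.56 and 1.81. Pgd, which makes NADPH from 6-phosphogluconate, stood at 2.95, 6.34 and 3.08 in treated dKO females, where replicates 1 and 3 lay inside the treated wild-type range of 2.79 to 3.45. Its difference between the treated female genotypes was -0.05 log2 without replicate 2. G6pdx, the first enzyme of the pathway, stood at 0.68, 2.56 and 0.32 in treated dKO females, all above the treated wild-type range of -0.14 to 0.16 (1.19 ± 0.44 log2, SE, adjusted p = 0.106 by limma). Without replicate 2 its difference was 0.50 log2.

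In the thioredoxin system Srxn1, which repairs oxidised peroxiredoxins, stood at 4.28, 7.13 and 3.66 in treated dKO females and at 2.71, 2.13 and 2.71 in untreated ones. It was 5.68-fold higher with treatment (2.51 ± 0.63 log2, SE, adjusted p = 0.0243 by limma). That difference was 1.45 (adjusted p = 0.0286) without replicate 2 of the treated group, and the call was lost without any 1 of the untreated dKO arrays, at 2.31 to 2.60. In treated males Srxn1 stood at 4.62, 5.10 and 4.76 in wild type and at 2.90, 2.86 and 3.66 in dKO, without overlap, and the difference of -1.68 ± 0.63 was not called (adjusted p = 0.109). The spread behind that SE is shared by all 6 groups. The standard deviation of Srxn1 was 1.85 in treated dKO females, against 0.25 in treated wild-type males and 0.45 in treated dKO males. Txn1, thioredoxin, fell by 0.59 ± 0.15 log2 in dKO in treated males (adjusted p = 0.0213), from 6.14 to 6.35 down to 5.53 to 5.98. Txnrd1, thioredoxin reductase, and Prdx1 were called in no comparison.

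Among the quinone, haem and xenobiotic enzymes, Ugdh and Ephx1 were lower in treated dKO males. Ugdh, which makes UDP-glucuronate for glucuronidation, stood at 6.07, 5.52 and 6.00 in wild type and at 4.01, 3.89 and 4.30 in dKO, and was 3.48-fold lower (-1.80 ± 0.30 log2, SE, adjusted p = 0.0022 by limma). Ephx1, microsomal epoxide hydrolase, stood at 6.11, 5.62 and 6.10 in wild type and at 4.25, 4.06 and 4.18 in dKO, and was 3.44-fold lower (-1.78 ± 0.36, adjusted p = 0.00658). Neither pair of groups overlapped, and both calls held without any 1 array. In untreated females Ephx1 stood at 3.12 to 3.81 in dKO and 4.48 to 5.01 in wild type, a difference of -1.26 ± 0.36 that was not called (adjusted p = 0.109). In treated females it stood at 4.65, 5.32 and 3.41 in dKO and at 5.52, 5.21 and 5.11 in wild type, a difference of -0.82 ± 0.36 (adjusted p = 0.165). Without replicate 2 of the treated dKO females that difference was -1.25 ± 0.31 and was called lower (adjusted p = 0.0398).

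Nqo1, a quinone reductase and a standard NRF2 target, stood at 2.28, 4.63 and 1.59 in treated dKO females and at 0.98, 0.98 and 1.65 in treated wild-type females. The groups overlapped, and the difference of 1.63 ± 0.57 log2 (SE) was not called (adjusted p = 0.0926 by limma). Without replicate 2 of the treated dKO females it was 0.73 log2. Hmox1, which degrades haem, stood at 2.23 to 3.30 in treated and 0.97 to 1.74 in untreated wild-type females, a difference of 1.23 ± 0.43 that was not called (adjusted p = 0.144).

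Of the ferritin chains, which store iron, the light chain Ftl1 fell by 0.88 ± 0.24 log2 (SE) in dKO in treated males (adjusted p = 0.0296 by limma), from 7.60 to 7.80 down to 6.69 to 6.93. The heavy chain Fth1 differed there by -0.30 ± 0.12 and was not called (adjusted p = 0.139). Nfe2l2, the gene of NRF2, stood at 3.84, 4.10 and 3.90 in treated wild-type males and at 3.37, 3.27 and 3.57 in treated dKO males, and fell by 0.54 ± 0.14 log2 in dKO (adjusted p = 0.0293). Its other features, above background on all 24 arrays, gave -0.64 and -1.44 there. By the feature used, Nfe2l2 stood at 3.43 to 3.70 in treated dKO females, against 3.59 to 3.76 in wild type. Mafg fell by 0.63 ± 0.16 in dKO in treated females (adjusted p = 0.0269), from 2.43 to 2.93 down to 1.92 to 2.08, and its call was lost without replicate 1 or 3 of the wild-type females (-0.70 and -0.46) or replicate 1 of the dKO females (-0.60). Keap1, with group means of 3.45 to 3.75, and Maff were called in no comparison. RNA levels of Nfe2l2 and Keap1 do not measure the activity of the NRF2 protein.

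Another 51 measured NRF2-linked and redox genes came from a fixed list, also chosen with earlier results of these data known. Of these, 5 were called higher and 6 lower in dKO in treated females, and 3 higher and 8 lower in treated males. The shares of all genes were 4.53% and 3.43% in females and 6.20% and 4.39% in males. In females Cbr3, a carbonyl reductase, rose by 4.27 ± 0.84 log2 (SE, adjusted p = 0.00827 by limma) and Ggt1, which breaks down glutathione outside the cell, by 4.05 ± 0.74 (adjusted p = 0.0057). Ggt1 had a mean of -4.77 in treated wild-type females and was above background on 2 of 3 arrays there, so its size rests partly on signal near background. Values without replicate 2 of the treated dKO females are not given for Cbr3 and Ggt1. In males Abcc4, an export pump, fell by 3.63 ± 0.56 (adjusted p = 0.00128), and Dpep1, a dipeptidase that acts on cysteinylglycine, rose by 1.90 ± 0.41 (adjusted p = 0.00932). Dpep1 was above background on 2 of 3 treated wild-type male arrays (mean -4.33). In treated females Dpep1 was called higher in dKO as well, by 1.88 ± 0.41 (adjusted p = 0.01336 by limma). With treatment of dKO females 7 were called higher and 4 lower, against 5.97% and 7.26% of all genes, and between the dKO sexes 0 higher and 4 lower in males, against 1.71% and 0.788%. Their median differences in the first 2 of these comparisons were 0.05 and -0.20 log2. Of 13 regulators that share partners with NRF2, 0 were called between genotypes in treated females by limma (0 higher and 2 lower at an unadjusted p under 0.05, against 12.1% and 13.8% of all genes), and in treated males only Bach2, a repressor that competes for small MAF proteins, was called (1.34 ± 0.20, adjusted p = 0.001005). With treatment of dKO females limma called Bach2, Nr1i2 and Cul3 lower, by -1.155, -1.56 and -0.55 log2 (adjusted p = 0.00596, 0.00544 and 0.0242). Bach2 was also called higher in treated dKO males than females (1.03, adjusted p = 0.0198).

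All 32 calls among the members had the same sign in the authors' deposited table of fold changes. The table comes from the same series, so equal signs are no independent check. That table gives Mgst2 as 48.3-fold higher in dKO in treated females and Gpx3 as 10.2-fold higher there.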

How the data were processed

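Per the labels' protocols, RNA was amplified by the WT-Ovation Pico system and carried Cy3. Scans were read with Agilent Feature Extraction, version 10.5.1.1 per the file headers and 9.53 per the submitters' processing notes. The deposited signals used here, processed, mean and background, are intensity values. A separate deposited table gives the authors' signed fold changes, treated as a score; how it was tested and normalized is not stated.

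Outlier spots were dropped and repeated features averaged (41174). Signals were divided by the array's 75th percentile (433.1 to 959.9) and taken as log2. Features had to be well above background on 4 or more of the 24 arrays (28048 did), and the brightest stood for its gene. No spot was saturated. Differences were fitted as 6 group means with limma 3.58.1 in R 4.3.3, checked on simulated data. The simulation gave a gene the same spread in all groups, so it does not cover a group as uneven as the treated dKO females. The planned fit used all 24 arrays. After the data were seen, array 4 of each group was left out. Up to 10 called members per comparison, by size, were to be given in full. Figures used matplotlib 3.10.9. Members and lists were chosen with earlier results of these data known. The alternatives were other probe choices, normexp (offset 50), quantile or median scaling, other filters, slide, position or replicate terms, only the groups compared, trended and robust variances, and arrays left out. The number of arrays limits precision.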

Additional observations from a re-analysis of the deposited data

How the results depend on the processing

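The fit reported leaves out array 4 of each group, a choice made after seeing the data. With all 24 arrays, as planned, members called were 8 for genotype in untreated females, 19 in treated females, 7 for treatment of wild-type females, 31 of dKO females, 5 for sex in wild type, 23 in dKO, 19 for sex by genotype and 4 for genotype by treatment. The p-values of that fit count arrays that were not shown to be separate samples. In treated females (4 reported) the count was 0 with position as a covariate and 0 in a fit of only the groups compared. In treated males (16) it was 9 with normexp, 9 with quantile normalization, 7 with no filter, 7 with slide as a fixed block and 0 with position. For treatment of dKO females (10) it was 5 with normexp, 6 with no filter, 16 with a filter on all 24 arrays, 1 with slide as a fixed block, 0 with position, 0 with only the groups compared and 3 without replicate 2 of the treated dKO females. Between the dKO sexes (2) it was 1 with normexp, median centring, no filter, slide as a fixed block or the replicate block, and 0 with position or only the groups compared. In untreated females quantile normalization called 1. For sex by genotype, leaving out replicate 2 of the treated dKO females called 2. The cause of these changes was not tested.

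Leaving out each of the arrays in turn gave 2 to 14 members called in treated females, 7 to 13 in treated males, 1 to 26 for treatment of dKO females, 1 to 13 between the dKO sexes, 0 to 12 for sex by genotype, 0 to 1 for genotype by treatment and 0 in the other 3 comparisons. The highest counts came without replicate 3 of the treated dKO females, and in treated males without replicate 3 of the dKO males. None of the 26 named calls reversed under any alternative run.

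Replicate numbers did not pair the arrays: over 21 pairs their deviations correlated from -0.29 to 0.30, with 2 pairs above 0.1. With the replicate block 4 members were called in treated females, 12 in treated males and 8 for treatment of dKO females.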
